A study of Mus musculus with 17 samples.

Results

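The 30 genes described here encode the enzymes and regulators of cholesterol and fatty acid synthesis that are driven by the SREBP transcription factors. They were chosen by name, with no measured value used as a rule, but with earlier results of these data known. All 30 were found among the 40824 genes of the UMI table. By role they comprised 3 regulators, 8 genes of the mevalonate pathway, 10 genes of the sterol branch from squalene to cholesterol, 1 sterol carrier, 3 genes of fatty acid synthesis and 5 genes of fatty acid desaturation and elongation. SREBPs are made as membrane proteins of the endoplasmic reticulum. When sterols are scarce they are carried to the Golgi and cut, and the released part enters the nucleus and switches on the genes of lipid synthesis; when sterols are plentiful, INSIG proteins hold them back. In beta cells, cholesterol is a component of the membranes of insulin granules, and citrate exported from mitochondria feeds the same pathway through ATP citrate lyase.

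Messenger RNA of single cells was counted by a modified STRT-seq protocol, in which each captured molecule carries a unique molecular identifier (UMI). The cells were RFP+ cells sorted from Ngn3-Cre; Rosa-RFP mice, in which Cre made under the promoter of Ngn3, a gene of endocrine progenitors, turns on RFP in those progenitors and their descendants; acinar, ductal and immune cells were also present in the libraries. Adult male mice aged 2 months received a single intraperitoneal dose of streptozotocin (STZ), a toxin taken up by beta cells, at 200 mg/kg, given once they had fasted overnight, while controls of the same age received citrate buffer. The series set out to describe endocrine cells after this dose, and to judge the maturity of beta cells against young mice. There were 3 control libraries and 8 libraries of STZ mice that carried insulin implants, namely STZ_D6, 2 of STZ_D12, STZ_D30, STZ_D42, STZ_M2, STZ_M5 and STZ_M9, named by the day or month of collection. Per the labels, the month 9 mice had discontinuous implants over their final 2 months. A further 2 libraries came from STZ mice at month 2 that had no implants (STZ_M2_NoIns), and 4 postnatal libraries came from mice at day 3 (P3), day 12 (P12, 2 libraries) and day 21 (P21) of the same genotype. The labels do not say whether libraries of a group came from different animals, so p-values measure the spread between these libraries, which may be technical.

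The 17 libraries held 22 to 295 cells and 1420536 to 26298456 UMIs each, 2999 cells in all, with a median of 61193 UMIs per cell. Cells are named by library and number, so barcodes shared between libraries could not be counted. Cell classes were named from clusters of cells that were formed without the lipid genes, and UMIs were summed per library and class. In adult libraries the summed level of 12 beta-cell markers, insulin genes included, was 98484 to 277751 CPM (a gene's UMIs scaled to a common total of 1e6 UMIs per sum) in beta cells and 3172 to 33398 CPM in alpha cells. The alpha-marker sum was 106954 to 164464 CPM in alpha cells and the PP-marker sum 145018 to 274994 CPM in PP cells. Delta cells held 75148 to 128743 CPM of delta markers but also 60815 to 94037 CPM of PP markers and 25970 to 91676 CPM of beta markers, so that in the 7 delta cells of Control replicate 1 the 3 sums were close, at 94975, 94037 and 91676 CPM. Between 5 and 210 beta cells stood behind each sum, with the fewest in STZ_M2 (8 cells) and in the libraries without implants (5 and 10 cells). Some beta cells were also rich in another hormone or in the acinar gene Prss2. Their share was 3.81% to 19.0% in controls, 16.2% to 56.4% with implants, and 80% and 70% without implants. Among adult alpha-cell sums the share was 32.5% to 78.3%, and it was 100% of delta cells in every library, so differences between types compare cells that differ in this too. All levels below are CPM of the summed UMIs, scaled between libraries by the trimmed mean of M values (TMM). They are not divided by gene length, so they are compared between samples and not between genes.

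Stretches of 5 promoters are shown because these genes, the sensor Insig1 and 4 enzymes of the sterol pathway, followed the other sterol enzymes most closely from cell to cell among the genes in the promoter table, as described further on. Each runs from 160 to 41 bases before the transcription start in the RefSeq promoter table (GRCm38.p6) and is written 5′ to 3′ on the strand of the gene. In Insig1, Idi1 and Cyp51 the stretch reaches into the annotated gene, and in Msmo1 it lies wholly inside it, because the outermost annotated start lies further upstream. Capitals mark 4 motifs searched on both strands: the sterol regulatory element TCACNCCAC, the CCAAT box bound by NF-Y, the E-box CACGTG, and the GC box GGGCGG bound by Sp1.

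Insig1 (chr5:28071252-28071371, plus strand): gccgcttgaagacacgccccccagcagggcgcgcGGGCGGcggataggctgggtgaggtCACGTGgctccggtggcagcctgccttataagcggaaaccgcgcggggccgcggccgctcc

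Hmgcs1 (chr13:119690191-119690310, plus strand): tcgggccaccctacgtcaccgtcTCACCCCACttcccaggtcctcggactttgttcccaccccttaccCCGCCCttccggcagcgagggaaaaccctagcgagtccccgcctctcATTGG

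Idi1 (chr13:8885446-8885565, plus strand): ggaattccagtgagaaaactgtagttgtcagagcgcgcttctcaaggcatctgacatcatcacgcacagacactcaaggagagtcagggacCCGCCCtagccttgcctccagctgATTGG

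Cyp51 (chr5:4104738-4104857, minus strand): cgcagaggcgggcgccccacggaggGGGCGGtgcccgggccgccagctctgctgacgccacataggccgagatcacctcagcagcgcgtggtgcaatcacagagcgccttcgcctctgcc

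Msmo1 (chr8:64733619-64733738, minus strand): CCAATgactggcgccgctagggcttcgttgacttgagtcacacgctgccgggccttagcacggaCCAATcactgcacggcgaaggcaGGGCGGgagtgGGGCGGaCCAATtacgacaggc

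The promoter table held 23 of the 30 genes. Within the 250 bases before the start, the CCAAT box was found in 18 of them (78.3%), against 37.5% of all 27025 genes with a promoter of that length. The GC box was found in 19 of them (82.6%), against 35.4% of all genes. The E-box was found in 4, namely Insig1, Hsd17b7, Sc5d and Dhcr7, against 6.86% of all genes. The sterol element in this strict spelling was found in Hmgcs1 alone, against 1.22% of all genes. A match of letters describes the sequence and is no evidence of binding, and a missing match says only that these letters are not in the window.

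Between endocrine types of the same adult libraries, all lipid synthesis genes called between beta cells and another type were higher in beta cells. In alpha cells 17 of the 25 genes tested were lower than in beta cells and 0 were higher, while 13.6% of all 9208 genes tested were higher in beta cells by the same test. The median difference, beta minus alpha, was 1.08 on the log2 scale over the 25 genes and -0.03 over all genes. Against delta cells 13 were higher in beta cells (background 11.3%) with a median difference of 0.85, and against PP cells, which make pancreatic polypeptide, 11 were higher (background 9.6%) with a median of 0.92. Not 1 of the 25 was called lower in beta cells in these 3 comparisons. A gene counted as called when its p in edgeR's quasi-likelihood test, with the library as a block, was under 0.05 after Benjamini-Hochberg adjustment over all genes. Fads2, Hsd17b7, Mvd, Scd1 and Tm7sf2 had too few UMIs to be tested here.

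Of the regulators, Insig1, which encodes the sterol sensor that retains SREBPs and is itself switched on by them, differed most. Its level in 13 adult beta-cell sums ran from 60.0 to 133 CPM with a median of 85.9, and in 12 alpha-cell sums from 10.8 to 43.8 with a median of 24.4. In 11 delta-cell sums it ran from 6.79 to 50.2 with a median of 19.9. Beta and alpha sums did not overlap, nor did beta and delta sums, and beta cells were higher in 12 of 12 libraries against alpha cells, 11 of 11 against delta cells and 12 of 12 against PP cells. The log2 difference was 2.04 ± 0.26 (SE, derived from the test) against alpha cells, 1.98 ± 0.28 against delta cells and 1.99 ± 0.28 against PP cells, with adjusted p of 4.09e-09, 1.5e-07 and 1.68e-07 in edgeR. Srebf1, the SREBP known mainly for fatty acid genes, was higher in beta cells than in alpha cells by 0.92 ± 0.31 (edgeR adjusted p = 0.0241) and than in delta cells by 1.00 ± 0.34 (edgeR adjusted p = 0.0309); its difference from PP cells was 0.92 ± 0.35 (edgeR adjusted p = 0.0603). Srebf2, the SREBP known mainly for cholesterol genes, had differences of 0.22, 0.02 and -0.28 from alpha, delta and PP cells, none of them called, and was lower in beta than in PP cells in 8 of 12 libraries.

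In the mevalonate pathway, which builds squalene from acetyl-CoA, 5 of 7 tested genes were higher in beta cells than in alpha cells. Fdps, which makes farnesyl diphosphate, ran from 63.9 to 188 CPM in beta cells with a median of 93.5, and from 26.6 to 55.3 in alpha cells with a median of 47.0. The ranges did not overlap, and beta cells were higher in every one of the 12 libraries (log2 difference 1.27 ± 0.17, edgeR adjusted p = 2.28e-08). The other 4 were Hmgcs1 (HMG-CoA synthase, 1.85 ± 0.31), Idi1 (isopentenyl diphosphate isomerase, 1.60 ± 0.36), Acat2 (acetoacetyl-CoA thiolase, 1.43 ± 0.41) and Fdft1 (squalene synthase, 0.99 ± 0.21). Against delta cells Fdps, Hmgcs1 and Fdft1 were again higher by 1.56, 1.66 and 1.14, and against PP cells Fdps, Hmgcs1, Idi1 and Fdft1 by 0.98, 1.31, 1.44 and 0.64. Mvk, mevalonate kinase, followed another order. It differed little between beta and alpha cells (0.12 ± 0.39), but its median was 9.92 CPM in beta cells, 9.84 in alpha cells, 11.8 in PP cells and 2.04 in delta cells. Delta cells were lower than each of the others, by 2.05 ± 0.49 against beta cells (edgeR adjusted p = 0.00143), 1.93 ± 0.49 against alpha cells (edgeR adjusted p = 0.00257) and 2.02 ± 0.52 against PP cells (edgeR adjusted p = 0.00372). Beta cells stood above delta cells in Mvk in 11 of 11 libraries.

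In the sterol branch 7 of 8 tested genes were higher in beta cells than in alpha cells. Sqle, squalene epoxidase, the first oxygen-requiring step, ran from 73.4 to 182 CPM in beta cells with a median of 132, from 19.1 to 42.04 in alpha cells with a median of 32.6, from 10.7 to 111 in delta cells with a median of 40.8 and from 10.9 to 96.5 in PP cells with a median of 38.4. Beta and alpha sums did not overlap, and within libraries beta cells were higher in all 12 pairs with alpha cells, all 11 with delta cells and all 12 with PP cells. The differences were 2.07 ± 0.20, 1.44 ± 0.21 and 1.504 ± 0.204. Msmo1, a sterol C4 demethylase, was higher in beta cells by 1.81 ± 0.25, 1.79 ± 0.27 and 1.36 ± 0.26 in the same order, and Cyp51, which removes the C14 methyl group of lanosterol, by 1.51 ± 0.31, 1.99 ± 0.35 and 1.15 ± 0.33. Lss (lanosterol synthase, 1.08 ± 0.33), Dhcr7 (the final reductase, 1.19 ± 0.40), Ebp (sterol isomerase, 0.76 ± 0.24) and Sc5d (sterol C5 desaturase, 0.87 ± 0.27) were also higher than in alpha cells. Ebp and Sc5d were higher than in delta cells by 0.75 and 0.85. Nsdhl, another C4 demethylation enzyme, was called in none of these pairs. Stard4, which carries sterol between membranes, was higher in beta than in alpha cells by 1.08 ± 0.41 (edgeR adjusted p = 0.0442); with 12 of 18 alternative settings it was no longer called.

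The genes of fatty acid synthesis did not move as a block. Acly, ATP citrate lyase, which makes cytosolic acetyl-CoA from citrate, ran from 498 to 1033 CPM in beta cells, from 381 to 584 in delta cells, from 190 to 327 in alpha cells and from 183 to 265 in PP cells. The order was thus beta, delta, then alpha and PP, with no overlap between beta and alpha or between delta and alpha sums, while the ranges of beta and delta cells overlapped. The log2 difference of beta cells was 1.78 ± 0.10 from alpha, 0.83 ± 0.10 from delta and 1.97 ± 0.10 from PP cells, and delta cells exceeded alpha cells by 0.95 (alpha minus delta -0.95 ± 0.10) and PP cells by 1.14 ± 0.10. Acly in alpha cells differed from PP cells by 0.19 ± 0.10 (edgeR adjusted p = 0.214). Downstream of Acly, Fasn, fatty acid synthase, had differences of -0.20 ± 0.31, 0.34 ± 0.35 and 0.32 ± 0.35 between beta cells and alpha, delta and PP cells, and was called in none; it was lower in beta than in alpha cells in 10 of 12 libraries. Acaca, acetyl-CoA carboxylase, was called only against PP cells (1.40 ± 0.48, edgeR adjusted p = 0.0350).

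Among desaturases and elongases, Scd2, a stearoyl-CoA desaturase, was shared by beta and delta cells. Its median was 71.5 CPM in beta cells and 60.7 in delta cells, against 16.1 in alpha and 6.68 in PP cells. Beta cells exceeded alpha cells by 2.15 ± 0.32 and PP cells by 2.24 ± 0.36, delta cells exceeded alpha cells by 2.04 (alpha minus delta -2.04 ± 0.33) and PP cells by 2.13 ± 0.38, and beta minus delta was 0.11 ± 0.31. Elovl6, which elongates palmitate, was higher in beta than in delta cells by 1.11 ± 0.34. Fads1, a desaturase of polyunsaturated fatty acids, was called in none of the 3 comparisons of beta cells.

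**Figure D1:**
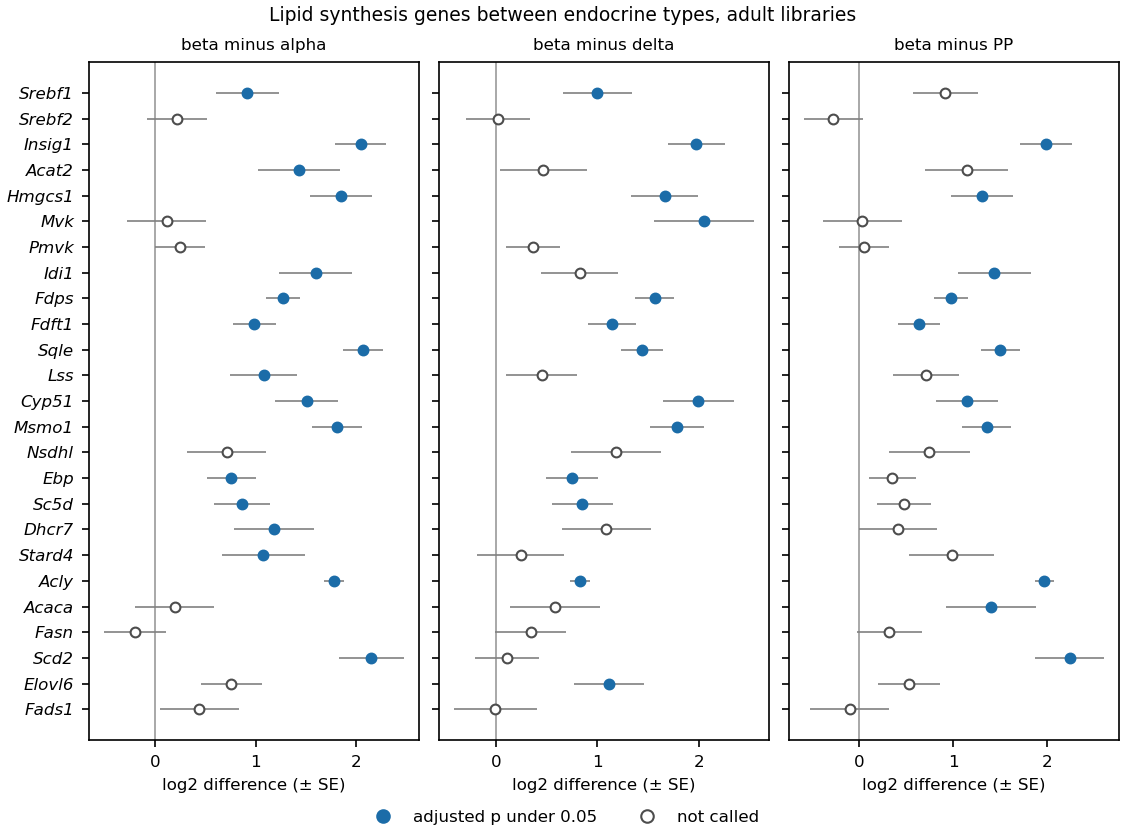
Log2 differences of 25 lipid synthesis genes between beta cells and alpha, delta or PP cells of the same adult libraries, with the SE as bars; filled points passed an adjusted p under 0.05 and open points did not. Filled points lie to the right of 0 in all 3 panels, with Insig1 near 2 in each, while Srebf2, Pmvk, Fasn and Fads1 are not filled in any panel.

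Between the other types the share of these genes that was called was near or below that of all genes. Between alpha and delta cells 4 of 25 were called (background 18.3%, with 9.4% higher in alpha cells), namely Mvk higher in alpha cells and Acly, Scd2 and Sqle (-0.63 ± 0.21) higher in delta cells. Between delta and PP cells 4 were called (background 17.3%, with 8.68% higher in delta cells), namely Acly and Scd2 higher in delta cells and Mvk and Fdps (-0.59 ± 0.20) higher in PP cells. Between alpha and PP cells edgeR called 0 (background 13.7%, with 7.27% higher in alpha cells), with 2 at an unadjusted p under 0.05, Sqle at -0.56 ± 0.21 and Acaca at 1.20 ± 0.47. Srebf1, Srebf2 and Insig1 were called in none of these pairs: their differences were 0.08, -0.20 and -0.07 for alpha minus delta, -0.00, -0.50 and -0.05 for alpha minus PP and -0.08, -0.30 and 0.02 for delta minus PP.

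The calls were not equally firm. Of the calls in beta cells, 11 of 17 against alpha cells, 9 of 13 against delta cells and 7 of 11 against PP cells held under every alternative that kept the STZ libraries, including each library left out in turn. Against alpha and PP cells these alternatives included leaving out cells rich in another hormone or Prss2, under which 13 and 10 genes were called; no delta cells remained for that comparison. The calls that held included Insig1, Fdps, Sqle, Msmo1 and Acly in all 3 comparisons. Leaving out 1 library ended the calls of Srebf1 (3 libraries against alpha cells and 5 against delta cells) and, for at least 1 library each, the calls of Ebp, Stard4 and Dhcr7 against alpha cells, of Ebp, Sc5d and Elovl6 against delta cells, of Fdft1 and Acaca against PP cells, of Sqle between alpha and delta cells and of Fdps between delta and PP cells. With the 2 control libraries that held all 4 types alone, 6, 2 and 6 genes were called against alpha, delta and PP cells; Insig1 and Msmo1 were in all 3 lists.

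The sum of the 18 enzymes from acetyl-CoA to cholesterol summarises the pathway. It ran from 556 to 1344 CPM in the beta cells of adult libraries and was 1.83 to 3.14 times that of alpha cells (median 2.45) in the 12 libraries with both. The ratio of beta to delta cells was 1.72 to 3.40 (median 2.48, 11 of 11 libraries above 1) and that of beta to PP cells 0.793 to 2.76 (median 2.17, 11 of 12 above 1). The exception was STZ_D6, whose 11 PP cells summed to 1093 CPM. The beta-cell marker sum of those PP cells, 10829 CPM, lay within the range of the PP sums, 1335 to 65867 CPM. Their PP-marker sum, 145018 CPM, was the lowest of the adult PP sums, and their ductal-marker sum, 3375 CPM, was the highest. The part of these markers in the enzyme sum was not tested. Outside the endocrine types, before TMM scaling, the sum was 95.3 to 230 CPM in acinar cells (11 libraries), 222 to 829 in ductal cells (7 libraries) and 166 and 239 in immune cells (2 libraries), against 502 to 1355 in beta cells.

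**Figure D2:**
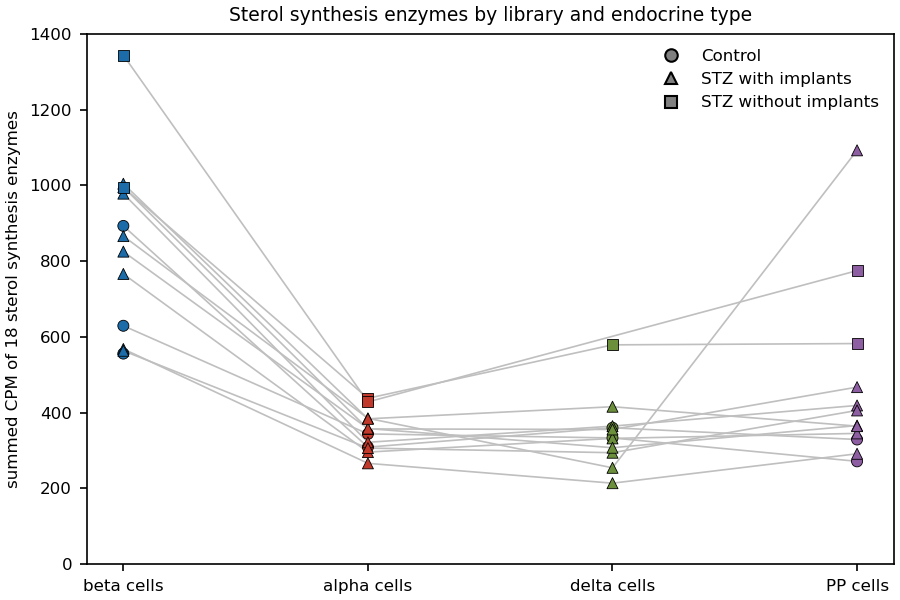
Summed CPM of 18 sterol synthesis enzymes in each endocrine type of the adult libraries; symbols give the treatment and grey lines join the sums of a library. Beta-cell sums lie above the alpha-cell sums of the same library in 12 of 12 cases, and the PP sum of STZ_D6 at 1093 CPM stands apart from the other PP sums.

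Related lipid genes outside the 30 were read from a list of 44, of which 34 were tested between types. In beta cells 10 were higher and 1 lower than in alpha cells, 9 higher and 2 lower than in delta cells, and 6 higher and 2 lower than in PP cells, against the same backgrounds as above. The largest was Mlxipl, which encodes the glucose-responsive factor ChREBP and was higher than in alpha cells by 4.55 ± 0.24 and in PP cells by 2.57 ± 0.24. Soat1, which esterifies cholesterol, was higher by 2.63, 0.98 and 2.05 against alpha, delta and PP cells; Abca1, a cholesterol exporter, by 1.01, 0.67 and 1.68; and Lpin1, a lipin of glycerolipid synthesis, by 0.65, 1.13 and 1.52. Insig2, a second INSIG gene, and Elovl5, an elongase, were higher than in alpha cells by 1.19 and 1.86 and than in PP cells by 0.81 and 1.82. Tmem97 and the citrate carrier Slc25a1 were higher than in alpha cells by 0.84 and 0.89 and than in delta cells by 0.85 and 0.82. Acss2 (1.21) and Tecr (0.42) were higher than in alpha cells, and Acat1 (2.02), Acsl3 (1.70), Hsd17b12 (0.59) and Mid1ip1 (0.55) than in delta cells. Lower in beta cells were Npc2, a lysosomal sterol carrier, against alpha (-1.005) and PP cells (-0.43), Me1 against PP cells (-1.44), and Fabp5 (-2.55) and Mbtps1 (-0.51) against delta cells.

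Between alpha, delta and PP cells the related genes split. Higher in alpha than in delta cells were Acat1 (2.11), Npc2 (1.31) and Mid1ip1 (0.50). Lower in alpha than in delta cells were Mlxipl (-4.11), Fabp5 (-3.80), Acss2 (-1.68), Soat1 (-1.65), Elovl5 (-1.39), Insig2 (-0.66) and Mbtps1 (-0.66). Alpha cells exceeded PP cells in Npc2 (0.57), Abca1 (0.66) and Lpin1 (0.87) and were below them in Tmem97 (-1.001), Me1 (-1.20), Tecr (-0.43) and Mlxipl (-1.98). Delta cells exceeded PP cells in Fabp5 (3.01), Mlxipl (2.13), Elovl5 (1.35), Abca1 (1.01) and Acss2 (0.92) and were below them in Acat1 (-1.96), Me1 (-1.32), Tmem97 (-1.01), Npc2 (-0.74) and Mid1ip1 (-0.54).

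In adult control beta cells the level was 686 ± 35.0 CPM (SD, n = 3) for Acly, 133 ± 34.8 for Msmo1 and 104 ± 29.4 for Sqle, and 0.934 ± 0.835 for Fads2, 2.34 ± 1.39 for Scd1 and 6.16 ± 3.25 for Mvd. These 6 genes had the most and the fewest UMIs of the 30, which sets the precision of their values and gives no order of levels between genes.

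After STZ with implants, edgeR called 0 of 28 lipid synthesis genes in beta cells against controls (background 2.82%), and DESeq2 called 1, Acly. At an unadjusted p under 0.05 in edgeR there were 2, against 1342 of all 10699 genes. The comparisons of STZ, of mice without implants and of postnatal mice with controls share the same 3 control libraries. Of the 28, 20 had positive differences and the median was 0.30 on the log2 scale against 0.00 over all genes. Acly was at 647, 699 and 713 CPM in controls and at 817 to 1033 with a median of 947 in the 8 STZ libraries. Every STZ library was above every control (0.43 ± 0.14, edgeR adjusted p = 0.120). Fdft1 was at 34.7, 43.2 and 64.7 CPM in controls and 48.3 to 111 with a median of 77.4 after STZ (0.67 ± 0.25, edgeR adjusted p = 0.204), and the groups overlapped. Acat2 had a difference of 0.79 ± 0.43 (edgeR adjusted p = 0.496).

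All 8 mevalonate genes had positive differences, from 0.04 to 0.79, and none was called. The regulators had differences below 0. Srebf1 was at 33.1, 57.1 and 59.4 CPM in controls and 24.1 to 61.3 after STZ (-0.46 ± 0.26), Srebf2 at 30.7 to 34.8 and 16.8 to 39.6 (-0.28 ± 0.27), and Insig1 at 69.4 to 106 and 60.0 to 113 (-0.02 ± 0.21). Groups overlapped for all 3, and no adjusted p was below 0.540. The sum of the 18 enzymes was 556, 630 and 893 CPM in controls and 564 to 1005 with a median of 846 after STZ.

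Other cell markers moved with the treatment in these beta-cell sums. The summed level of 6 PP-cell markers was 2835 to 5594 CPM in controls, 10173 to 38799 with implants and 31916 and 50215 without implants. The beta-cell marker sum was 242545 to 277751, 115583 to 267282 and 98484 and 114105 CPM, and that of acinar markers 12403 to 42857, 23848 to 45241 and 5009 and 68353 CPM. The delta-marker sum was 598 to 1536, 1111 to 7978 (median 3838) and 1222 and 2628 CPM. Delta cells were above alpha and PP cells in Acly and Scd2. They were below beta cells in Acly in 11 of 11 libraries and in Scd2 in 7 of 11. The part of these differences in the results of the lipid genes was not tested, except that edgeR also called 0 of them when cells rich in another hormone or Prss2 were left out. Among the libraries of 1 shared sequencing run (1 control and 3 STZ libraries) edgeR called 0 lipid synthesis genes, and the differences were 0.14 for Acly, 0.18 for Fdft1, -1.14 for Srebf1, -0.69 for Srebf2 and -0.56 for Insig1. The differences of Acly and Fdft1 were thus smaller there than over all libraries, and those of the 3 regulators further below 0. In that run the control, Control replicate 2, had 139 beta cells, and STZ_D30, STZ_D6 and STZ_M2 had 6, 14 and 8. This control also had the highest Srebf1 (59.4 CPM) and Srebf2 (34.8 CPM) of the 3 controls. The part of these 2 points in the differences was not tested. Of the 44 related genes 40 were tested and 1 was called, a share near that of all genes. It was Mid1ip1, which encodes an activator of acetyl-CoA carboxylase. It was at 54.7 to 78.3 CPM in controls and 119 to 207 after STZ, with no overlap (1.17 ± 0.21, edgeR adjusted p = 0.00380).

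At single times after STZ edgeR called 0 of 29 genes against controls at every time. The backgrounds were 0.0676% for STZ_D6, 0.541% for STZ_D12, 0.15% for STZ_D30, 0.278% for STZ_D42, 0.0902% for STZ_M2, 0.21% for STZ_M5 and 0.511% for STZ_M9, and 0, 1 or 2 genes had an unadjusted p under 0.05 at each time; DESeq2 called 0. The smallest p belonged to Cyp51 at month 2, where the 8 beta cells of the single library gave 2.68 CPM against 44.0 to 84.1 in the other 7 STZ libraries (-4.37 ± 1.11 from controls, edgeR adjusted p = 0.1998). In the same library Scd2 was at 158 CPM, above the 50.4 to 80.2 of the others (1.26 ± 0.47, edgeR adjusted p = 0.388). Nsdhl was at 35.6 CPM at month 9 against 9.06 to 19.1 at the other times (1.54 ± 0.58, edgeR adjusted p = 0.513). Over the 7 times the difference from controls ran from -1.09 to 0.02 for Srebf1, from -0.94 to 0.26 for Srebf2 and from -0.54 to 0.37 for Insig1.

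A trend over the log2 of days after STZ, with 8 libraries, called 0 of 21 genes in edgeR (background 0%) and 0 in DESeq2. At an unadjusted p under 0.05 in edgeR there were 2, against 222 of all 6673 genes. Per doubling of time the slopes were 0.26 ± 0.09 for Nsdhl, 0.15 ± 0.05 for Insig1, 0.10 ± 0.06 for Fdft1, -0.05 ± 0.09 for Srebf1 and 0.13 ± 0.08 for Srebf2. Insig1 was at 60.0 CPM at day 6, 81.8 and 69.0 at day 12, 77.9 at day 30, 86.9 at day 42, 85.9 at month 2, 113 at month 5 and 108 at month 9. Its values at months 5 and 9 were above all earlier ones, while its slope did not pass over all genes (edgeR adjusted p = 1.00).

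At month 2 without implants several genes lay outside the range of the controls, in both directions, and none passed the test. How many of all genes lay outside that range was not counted, so these positions describe single genes only. Against controls edgeR called 0 of 29 genes (background 2.24%), and DESeq2 called Srebf1 and Acat2. At an unadjusted p under 0.05 in edgeR there were 11, against 2306 of all 13305 genes, so low unadjusted p were common in this comparison. Srebf1 was at 13.99 and 16.1 CPM in the libraries without implants, below every control at 33.1, 57.1 and 59.4 and below every implanted library at 24.1 to 61.3. Its difference was -1.78 ± 0.46 from controls (edgeR adjusted p = 0.0539) and -1.30 ± 0.45 from implanted STZ libraries (edgeR adjusted p = 0.190). Several enzymes stood at the other end. Acat2 was at 27.97 and 48.2 CPM against 4.84 to 13.2 in controls (2.02 ± 0.59, edgeR adjusted p = 0.0859) and Sqle at 178 and 182 against 73.4 to 132 (0.75 ± 0.30, edgeR adjusted p = 0.208). Insig1 was at 133 and 124 CPM against 69.4 to 106 (0.55 ± 0.30, edgeR adjusted p = 0.363). For each of these 3 both libraries were above every control.

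The enzymes did not all lie on the same side. Ebp was at 24.5 and 8.04 CPM against 36.6 to 69.4 in controls (-1.74 ± 0.51, edgeR adjusted p = 0.0931), and Acaca at 0 and 6.43 against 11.6 to 18.1. Srebf2 differed from controls by -0.54 ± 0.46. The 18 enzymes summed to 995 and 1344 CPM without implants, both above the controls. The first lay within the 564 to 1005 CPM of the implanted libraries. Other types were also above their controls. Alpha cells had 438 and 428 CPM against 309 and 344, and delta cells 579 in 1 library against 360 and 333. PP cells had 583 and 775 CPM against 329 and 272. The implanted ranges were 266 to 385 in alpha, 214 to 416 in delta and 292 to 1093 in PP cells. Of 41 related genes tested, Mid1ip1 was the 1 called, again near the share of all genes (1.55 ± 0.28, edgeR adjusted p = 0.00885). The beta-cell sums without implants rest on 5 and 10 cells, and leaving out either library changed the calls. Without the first, Fdft1, Acat2 and Ebp were called; without the second, Acaca, Srebf1 and Stard4 were called against controls and Cyp51 against STZ_M2.

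Against the 8 implanted libraries edgeR called 0 of 28 (background 0.0383%), and DESeq2 called 0. At an unadjusted p under 0.05 in edgeR there were 10, against 1576 of all 10454 genes. Acaca had a difference of -2.59 ± 0.77 (edgeR adjusted p = 0.146), Msmo1, at 171 and 254 CPM against 77.7 to 165, of 0.86 ± 0.28 (edgeR adjusted p = 0.172), Insig1 of 0.59 ± 0.26 and Srebf2 of -0.23 ± 0.44. Without the second library lacking implants, Acaca, Acly and Stard4 were called. Against STZ_M2 alone, 1 library of 8 cells, edgeR called 0 (background 0.0977%). Cyp51 differed by 4.15 ± 1.17 and Ebp by -2.31 ± 0.65. Hsd17b7, a sterol C4 demethylation enzyme, was at 0 CPM in STZ_M2 and at 29.7 and 20.9 without implants. Srebf1, Srebf2 and Insig1 differed from STZ_M2 by -1.40, -0.67 and 0.59.

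**Figure D3:**
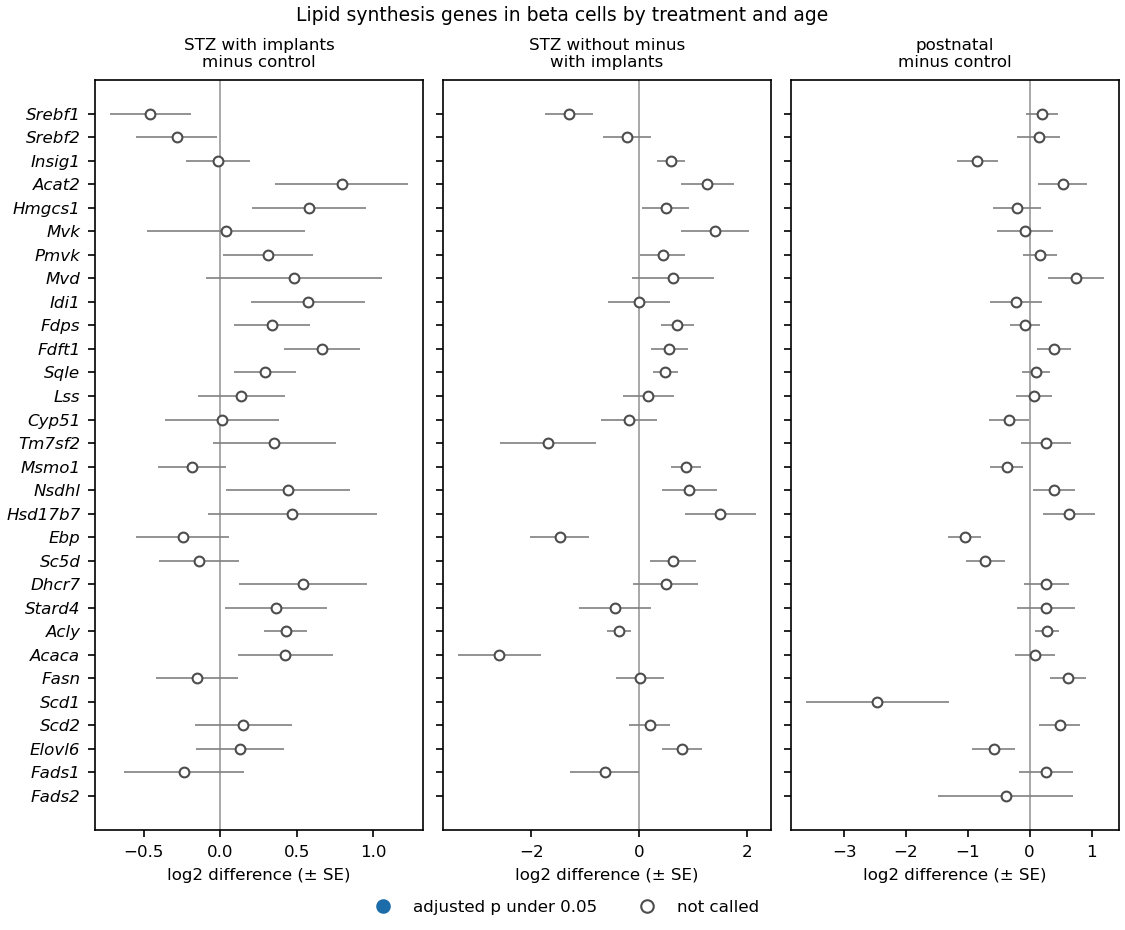
Log2 differences of the lipid synthesis genes in beta cells for STZ with implants minus control, STZ without minus with implants, and postnatal minus control, with the SE as bars; all points are open because none passed an adjusted p under 0.05. Srebf1 lies at -0.46 and -1.30 in the first and middle panels, and Insig1 and Ebp lie at -0.85 and -1.05 in the postnatal panel.

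In postnatal beta cells edgeR called 0 of 30 genes against adult controls (background 0.499%), and DESeq2 called 1, Ebp. At an unadjusted p under 0.05 in edgeR there were 4, against 1414 of all 12426 genes. Ebp was at 23.1 CPM at P3, 22.4 and 32.2 at P12 and 23.2 at P21, below all 3 controls at 36.6, 54.4 and 69.4 (-1.05 ± 0.26, edgeR adjusted p = 0.104). Insig1 was at 25.7 CPM at P3, 42.5 and 37.4 at P12 and 84.9 at P21, so that P3 and P12 were below every control and P21 was within the controls' range (-0.85 ± 0.33, edgeR adjusted p = 0.319). Sc5d differed by -0.72 ± 0.32 (edgeR adjusted p = 0.402), Srebf1 by 0.20 ± 0.26 and Srebf2 by 0.14 ± 0.35. With P21 left out, Insig1 was called. The acinar marker sum of the postnatal beta cells, 1626 to 11396 CPM, was below that of the controls. At P3, where Insig1 was lowest, 51.6% of beta cells were rich in another hormone or Prss2, against 4.84% to 23.6% in the other postnatal libraries. The beta-cell marker sum at P3 was 144400 CPM, below the controls, the PP-cell marker sum was 14996 CPM and the epsilon-cell marker Ghrl 191 CPM, against at most 5594 and 10.2 CPM in controls. The part of these differences in the values of the lipid genes was not tested.

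By single age edgeR called 0 of 29 genes at P3 (background 0.428%), P12 (background 0.639%) and P21 (background 0.00752%), and 0 for P12 minus P3 (background 0.0451%) and P21 minus P12 (background 0.0601%). At an unadjusted p under 0.05 there were 3, 3, 1, 0 and 2 genes in that order. DESeq2 called Insig1 at P3 and P12. The difference of Insig1 from adult controls was -1.76 ± 0.41 at P3 (edgeR adjusted p = 0.0786) and -1.10 ± 0.30 at P12 (edgeR adjusted p = 0.147), and P21 minus P12 was 1.09 ± 0.38. Against adult controls Srebf1 differed by -0.15, 0.46 and -0.08 and Srebf2 by -0.13, -0.40 and 0.98 at P3, P12 and P21. Without either library lacking implants, which share the estimate of spread in this fit, both P3 and P12 were called for Insig1. Of the enzymes that tracked the rest of the pathway in single cells, Hmgcs1 was at 21.8 CPM at P3 against 24.2 to 79.4 in controls, and Msmo1 at 70.8 against 112 to 173; neither was called.

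**Figure D4:**
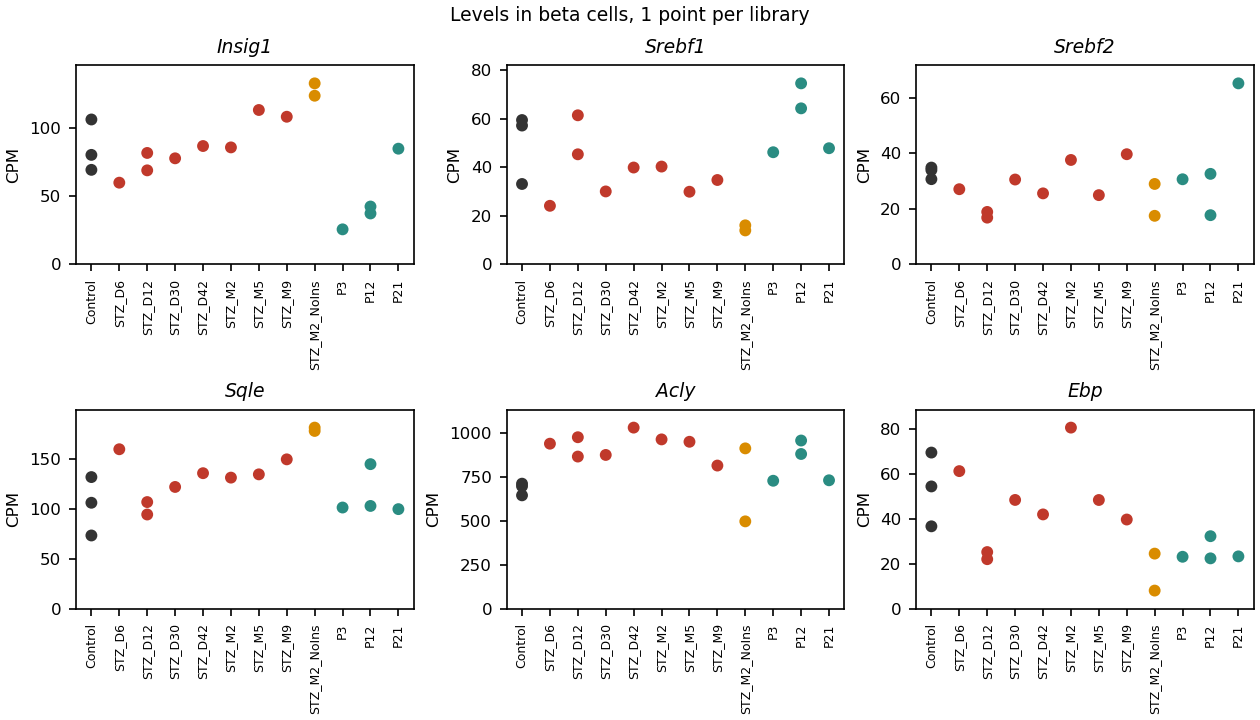
Levels of Insig1, Srebf1, Srebf2, Sqle, Acly and Ebp in beta cells, in CPM, with 1 point per library in each of the 12 groups. Insig1 is lowest at P3 (25.7 CPM) and P12 (37.4 and 42.5), Srebf1 is lowest without implants (13.99 and 16.1), and Acly is higher in all 8 implanted STZ libraries than in the 3 controls.

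In alpha, delta and PP cells none of the genes tested was called by treatment, nor in alpha cells by age; ages were not compared in delta and PP cells. In alpha cells after STZ with implants edgeR and DESeq2 called 0 of 28 (background 0%), with 1 at an unadjusted p under 0.05, and the median difference was 0.01 against 0.02 over all genes. Cyp51 was at 9.89 and 7.18 CPM in the 2 controls and 9.68 to 29.4 after STZ (1.22 ± 0.51, edgeR adjusted p = 1.00). Acaca differed by 0.80, Hmgcs1 by -0.49, Srebf1 by 0.25, Srebf2 by -0.21 and Insig1 by -0.09. The STZ effect was compared between beta and alpha cells in the same libraries, with 0 of 28 called by edgeR (background 0.195%), 2 at an unadjusted p under 0.05, and 0 by DESeq2. The differences of the effect, beta minus alpha, were -1.49 ± 0.61 for Cyp51, -0.97 ± 0.46 for Srebf1, 0.42 ± 0.23 for Acly, -0.07 ± 0.48 for Srebf2 and 0.00 ± 0.42 for Insig1.

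Alpha cells without implants stood at the upper end for a few sterol genes. Against implanted STZ libraries edgeR and DESeq2 called 0 of 28 (background 0.0185%), with 3 at an unadjusted p under 0.05 in edgeR, against 604 of all 10815 genes. Msmo1 was at 52.3 and 104 CPM against 16.7 to 69.3 (1.12 ± 0.39, edgeR adjusted p = 0.828), Insig1 at 40.4 and 43.8 against 10.8 to 42.1 (0.96 ± 0.42) and Mvk at 28.1 and 17.7 against 5.38 to 21.1 (1.13 ± 0.50). All 3 ranges overlapped. Srebf1 differed by 0.29 and Srebf2 by -0.18. Among postnatal libraries only P21 held enough alpha cells, and edgeR and DESeq2 called 0 of 28 there (background 0.381%), with 3 at an unadjusted p under 0.05. Scd2 differed by 1.72, Cyp51 by 1.90, Hsd17b7 by 2.05, Srebf1 by 0.64, Srebf2 by 0.34 and Insig1 by 0.04.

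In delta cells after STZ with implants edgeR and DESeq2 called 0 of 21 (background 0%), and 0 genes had an unadjusted p under 0.05. Fasn differed by 1.77 ± 0.88, Acaca by 2.08 ± 1.37, Stard4 by 1.35 ± 1.03, Srebf1 by -0.92, Srebf2 by -0.30 and Insig1 by 0.87. Without implants, with 1 library, edgeR and DESeq2 called 0 of 25 (background 0.285%). Fdft1 was at 87.6 CPM against 10.05 to 38.5 with implants (1.56 ± 0.56), Scd2 at 25.5 against 51.7 to 106 (-1.41 ± 0.56) and Srebf2 at 4.25 against 0 to 68.3 (-2.85 ± 1.21). Srebf1 differed by 1.14 and Insig1 by 0.15.

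PP cells were few, with 5 and 6 cells in the 2 controls. After STZ with implants edgeR and DESeq2 called 0 of 22 (background 0%), with 3 at an unadjusted p under 0.05 in edgeR, against 712 of all 8225 genes. Msmo1 was at 4.39 and 16.3 CPM in controls and 18.1 to 248 after STZ (2.56 ± 1.09), and Insig1 at 0 and 5.43 against 0 to 42.1 (2.98 ± 1.42). Scd2 was at 0 CPM in both controls and 3.18 to 124 after STZ, Srebf1 differed by 2.59 ± 1.39 and Srebf2 by 0.17. Without implants edgeR and DESeq2 called 0 of 23 (background 0%), with 6 at an unadjusted p under 0.05 in edgeR, against 489 of all 8422 genes. Stard4 differed by 2.62 ± 0.90, Srebf1 by 1.76 ± 0.61, Fdps by 1.17 ± 0.44, Insig1 by 1.76 ± 0.67 and Srebf2 by 0.46.

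From cell to cell 13 of the 18 sterol enzymes followed the sum of the others in beta cells more closely than 95% of other genes did in the main thinning. Each of 836 beta cells in 11 libraries (24 to 190 cells each) was thinned to 30383 UMIs, and each gene was ranked against the summed UMIs of the other sterol enzymes within its library. The median Spearman rho over libraries was 0.381 for Insig1, 0.352 for Idi1, 0.332 for Fdps, 0.325 for Hmgcs1, 0.322 for Msmo1, 0.318 for Cyp51 and 0.294 for Fdft1. Over 6542 other genes with a UMI in at least 25% of cells, the median was 0.0206 and the 5th to 95th percentile ran from -0.0592 to 0.103. The enzymes were not held to that share of cells, and some, such as Hsd17b7 (13.4%), were below it. Fdps, Fdft1, Cyp51 and Msmo1 were above 0 in all 11 libraries and Insig1, Hmgcs1 and Idi1 in 10.

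The pattern extended to some of the fatty acid genes, and most to Scd2. Scd2 had a median rho of 0.276, above 0 in 11 libraries, Acly had 0.158 and Elovl6 0.152. With another random thinning Elovl6 had 0.0599. Scd1 had 0.168, but a UMI in 2.43% of cells. Fads1 had 0.0930, Fasn 0.0559, Fads2 0.0499 and Acaca 0.0244. Of the regulators besides Insig1, Srebf2 had 0.170 and Srebf1 0.0755, but this order was not stable. With another random thinning Srebf2 had 0.0967 and Srebf1 0.125. When cells rich in another hormone were left out they had 0.0808 and 0.119. The remaining 5 enzymes lay within the 5th to 95th percentile of other genes, namely Pmvk (0.0898), Acat2 (0.0875) and Mvk (0.0690) of the mevalonate pathway and Sc5d (0.0547) and Ebp (0.00264) of the late sterol steps. Membership depended on the draw and the cells. With another thinning Nsdhl (0.0897) and Hsd17b7 (0.0758) were below 0.103 and Mvk (0.120) was above it. Without cells rich in another hormone, Acat2 and Pmvk exceeded 99.8% and 96.6% of other genes, and Hsd17b7 92.2%. In the 114 cells of P3 most of the leading genes were near 0, with Insig1 at -0.0288, Hmgcs1 at -0.0284, Cyp51 at 0.00230, Fdft1 at 0.00407 and Fdps at 0.0573. Msmo1 at 0.172 and Idi1 at 0.114 were higher there. These values describe cells that share a library and a depth, at counts where many cells have 0 UMIs of a gene (Mvd had a UMI in 15.8% of cells and Sqle in 85.4%), and carry no p. The median over the 18 enzymes was 0.180, 0.136 with another random thinning, and 0.173 when cells rich in another hormone were left out.

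**Figure D5:**
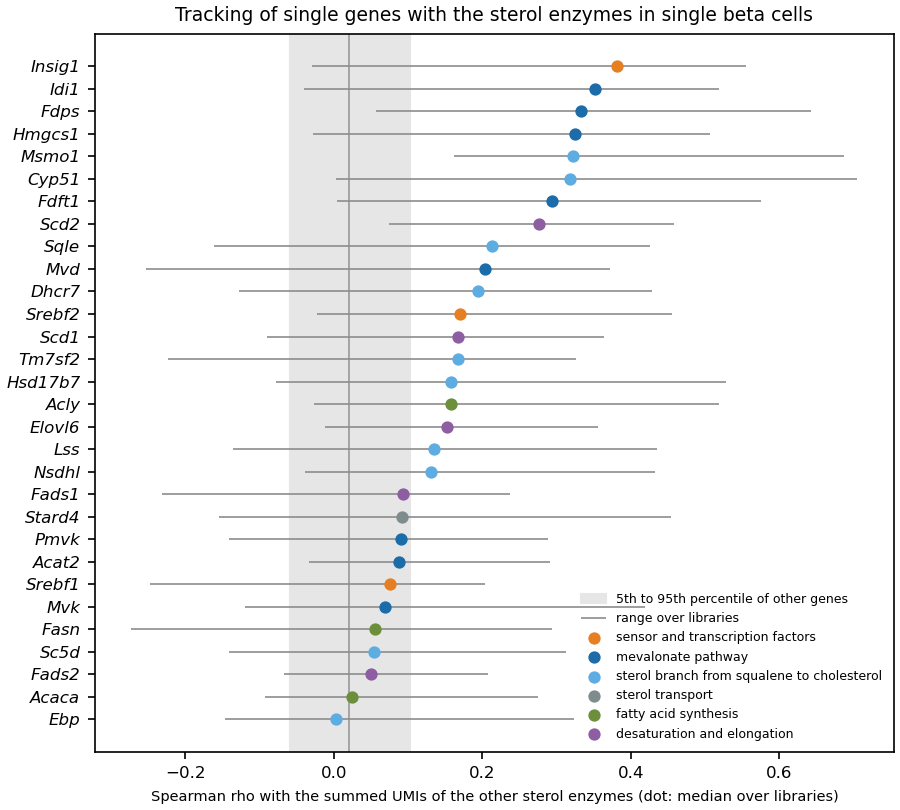
Spearman rho of each lipid synthesis gene with the summed UMIs of the other sterol enzymes across single beta cells of a library; dots are medians over libraries, lines the range over libraries, and the grey band the 5th to 95th percentile of other genes. Insig1 leads at 0.381, followed by Idi1 and Fdps, while Acaca and Ebp lie inside the band.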

How the data were processed

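The study counted messenger RNA of single sorted pancreatic cells in 17 libraries. The authors deposited a table of UMI counts per gene and cell, without normalization. Per the submitters' processing notes UMI-tools 0.5.0, SAMtools 1.3.1, featureCounts 1.5.3 and TopHat2 2.1.0 were used, with genome build mm10. The 6 rows without a symbol (611 UMIs) were left out, and the table held 0 mitochondrial genes, so RNA quality could not be read from them. Library totals ran from 1420536 to 26298456 UMIs, and the lowest median per cell was 36134, in STZ_D12 replicate 1.

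Cells were clustered on 300 variable genes without 73 lipid genes (15 principal components, 20 neighbours, Leiden resolution 0.03, then 0.5 within clusters of at least 250 cells). Of 13 clusters, 12 were named from marker lists and 1 (44 cells) stayed unnamed. No doublet caller was run. Cells with at least 1000 UMIs of another hormone or of Prss2 per 100000 were kept in the main fits and left out in an alternative. Counts were summed per library and class (at least 5 cells) and tested with edgeR 4.0.16 (TMM, filterByExpr, quasi-likelihood F test, Benjamini-Hochberg over all genes), R 4.3.3. SEs are the log2 difference over the root of F. DESeq2 1.42.0, size factors, filters, cell minimums, single-library omissions and a replicate block were alternatives. On counts simulated with a preset spread, 200 genes with many UMIs were changed 4-fold. Of these, 79% were recovered for STZ against control (10509 genes) and 100% between types (9065 genes). Smaller changes, such as those named for STZ against control in beta cells, and genes with few UMIs were not simulated, so their recovery is not known. Single cells were thinned to 30383 UMIs with Python 3.11.15, which left out 101 beta cells below that depth.

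The genes and lists were chosen with earlier results of these data known. In each comparison the genes that passed were named, together with Srebf1, Srebf2 and Insig1, and the 3 of smallest p where fewer than 3 passed; where several times or ages were compared, the smallest were taken over all of them. Other genes named with values were chosen after the values were seen. The deposited raw file names gave a sequencing run for 10 libraries, and 1 of these runs held both control and STZ libraries; in the others run and group cannot be told apart.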

Additional observations from a re-analysis of the deposited data

How the results depend on the processing

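Beta-cell sums after STZ rest on 5 to 68 cells, and counts of UMIs cover counting error only within a library. The shared run, the control libraries alone and, in single cells, the omission of cells rich in another hormone were chosen after seeing the data. Among the values of single genes under other settings, 1785 kept direction and side of the threshold, 121 lost a call, 29 gained it and 47 changed sign.

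For month 2 without implants the main count of 0 became 2 with DESeq2, 3 with at least 10 cells per library (Fdft1, Acat2 and Ebp), 6 with no filter on low counts and 0 to 4 with a library left out. For postnatal against control the count of 0 became 1 with DESeq2, 2 with no filter (Ebp and Insig1) and 0 to 1 with a library left out. For single postnatal ages it became 2 with DESeq2, 2 with at least 10 cells, 1 with no filter and 0 to 2 with a library left out, in each case Insig1. Single times after STZ gave 1 with no filter (Cyp51 at month 2), STZ against control 1 with DESeq2 (Acly), and without against with implants 0 to 3 with a library left out. Between types 49 calls became 16 with the control libraries alone (6, 2 and 6 for beta minus alpha, delta and PP), where 2 libraries were fitted, and 42 to 47 with a library left out. The causes were not tested.

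Some values changed sign. Insig1 for STZ against control in beta cells (-0.02) was 0.00233 with size factors from DESeq2 in edgeR, 0.000222 with DESeq2, 0.301 without cells rich in another hormone and -0.138 to 0.171 with a library left out. In alpha cells Insig1 (-0.09) was 0.137 with the replicate block, 0.137 without cells rich in another hormone and -0.474 to 0.419 with a library left out, and Srebf1 (0.25) was -0.0337 and -0.150 to 0.812 in the last 2 settings. Srebf2 in postnatal beta cells (0.14) was -0.183 with the replicate block and -0.288 to 0.365 with a library left out, and Srebf1 (0.20) -0.0215 to 0.317. Srebf2 without against with implants was 0.103 in beta cells and -0.204 in PP cells with at least 10 cells, and with a library left out -0.682 to 0.0859 in beta, -1.35 to 0.540 in alpha and -0.180 to 0.960 in PP cells. Srebf2 after STZ was 1.20 in delta cells with at least 10 cells and -1.04 to 1.21 with a library left out, and in PP cells -0.0974 with the replicate block and -0.409 to 1.59. In the comparison of STZ effects Insig1 was -0.0515 with no filter and -0.706 to 0.603 with a library left out, and Srebf2 -0.204 to 0.0356. The Srebf1 slope was -0.143 to 0.00640. Between types Srebf2 for beta minus delta was -0.0565 with size factors from DESeq2 in edgeR, -0.0475 with DESeq2, -0.106 with implanted STZ libraries alone and -0.181 to 0.283 with a library left out. With control libraries alone Srebf2 for beta minus PP was 0.426, Sqle for alpha minus delta 0.157 and Fdps for delta minus PP 0.202.

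Replicate numbers gave no clear sign of pairing: of 12 same-number pairs of libraries 1 had a correlation of deviations above 0.1 (range -0.0859 to 0.129). The deviations of 2 libraries from their group mean mirror each other, so some of these pairs repeat the same value. The check is therefore too small to settle whether the numbers pair libraries. With the replicate block 0 of the 30 genes were called by treatment or age, as without it; over all genes it gave 81 calls against 302 for STZ against control, 123 against 298 for month 2 without implants against control, 0 against 62 for postnatal and 31 against 72 for STZ_D12. Not run, for lack of libraries, were the minimum of 10 cells for PP cells after STZ, the block and the omission of the first library for delta cells without implants, the block and omissions for postnatal alpha cells, and the block for the trend.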
